A study of Mus musculus with 292 samples.

Results

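The comparison set 72 mouse brains with high Arc against 72 brains with low Arc, 144 of the 292 arrays of the series. Arrays were ranked by the log10 ratio of the sole Arc probe, separately among mice numbered up to 212 (151 arrays) and from 213 (141 arrays). The arrays were thus chosen by the measured Arc values: the highest 25% and the lowest 25% of each block, 37 and 35 arrays on each side, were pooled. The 72 high Arc and 72 low Arc brains all came from F2 mice of the C57BL/6J and C3H/HeJ strains, bred with the parental strains in either order and by intercrossing the F1. Up to an age of 8 weeks both groups ate chow of 4% fat, and over the next 12 weeks the Western diet (fat 42%, cholesterol 0.15%). Brains were taken at an age of 20 weeks, and a fast of 12 h came before. There was no treatment that differed between them, and the sex and cross direction of single mice are not given in the labels. Each array compared the RNA of 1 brain, labelled with Cy3, with a pool made from all the samples, labelled with Cy5. The p-values below therefore speak of covariation with the Arc probe across mice.

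Arc encodes a cytoskeleton-associated protein of dendrites that promotes the removal of AMPA-type glutamate receptors from synapses. It is an immediate early gene: its transcription starts within minutes of strong synaptic input, from transcription factors that are already present in the neuron, and does not need new protein. Other immediate early genes of neurons encode transcription factors (the Egr, Fos, Jun and Nr4a families), effector proteins, and phosphatases that switch the inducing MAP kinase signal off again. Since whole brain was measured, fewer cells of a type and less RNA per cell cannot be told apart.

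The Arc values chose the groups and are given as a description. The log10 ratio of Arc ran from -0.0403 through a median of 0.136 to 0.307 in the high Arc brains, against -0.614, -0.333 and -0.142 in the low Arc brains. The pooled groups did not overlap, which ranking within blocks does not by itself require, and their means stood 0.44 apart on the log10 scale, or 2.76-fold. In mice up to 212 the last array inside the high group had 0.101 and the first one outside had 0.0992, above the lowest high Arc value of the other block, while the last inside the low group had -0.142 and the first outside -0.140. In mice from 213 the corresponding values were -0.0403 and -0.0405 at the high border, and -0.328 and -0.322 at the low border. The borders thus cut a continuous distribution, and the median of Arc over all arrays was -0.176 in mice from 213 and -0.0403 in mice up to 212.

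The other markers named for an activity state are Egr2, Egr4 and Fos, which the ranking did not use. They were chosen with earlier results of these data known, so their values describe the groups and cannot check the label. Egr2, a zinc finger transcription factor of the early growth response family, had log10 ratios of -0.322, 0.115 and 0.624 (lowest, median and highest) in high Arc brains, against -0.718, -0.272 and 0.155 in low Arc brains. It was 2.64-fold higher in high Arc brains (difference 0.42 ± 0.02 on the log10 scale, SE; adjusted p = 1.96e-35, limma with Benjamini-Hochberg adjustment over 23548 probes). All 72 high Arc brains exceeded the median of the low Arc brains of their block, and 26 exceeded every low Arc brain.

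Egr4, a second member of the family, had -0.280, 0.0114 and 0.396 in high Arc brains, against -0.452, -0.160 and 0.128 in low Arc brains. It was 1.52-fold higher (adjusted p = 2.98e-17), with 70 of 72 high Arc brains above the low Arc median of their block. Fos, the AP-1 subunit most used as a marker of recently active neurons, had -0.0444, 0.0109 and 0.203 in high Arc brains, against -0.110, -0.0477 and 0.0431 in low Arc brains. Its difference was small in size, 1.18-fold, but regular (adjusted p = 1.5e-18), with 72 of 72 high Arc brains above the low Arc median. The ranges of all 3 markers overlapped between the groups.

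Taken array by array, 55 of the 72 high Arc brains also lay in the highest 25% of all arrays of their block for Egr2, and 0 in its lowest 25%. For Egr4 the numbers were 43 and 1, for Fos 45 and 0, and for Egr1 41 and 5. Among the 72 low Arc brains, 44 lay in the lowest 25% for Egr2, 35 for Egr4, 38 for Fos and 34 for Egr1. Brains high for Arc were thus mostly, but not always, high for these genes.

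**Figure D1:**
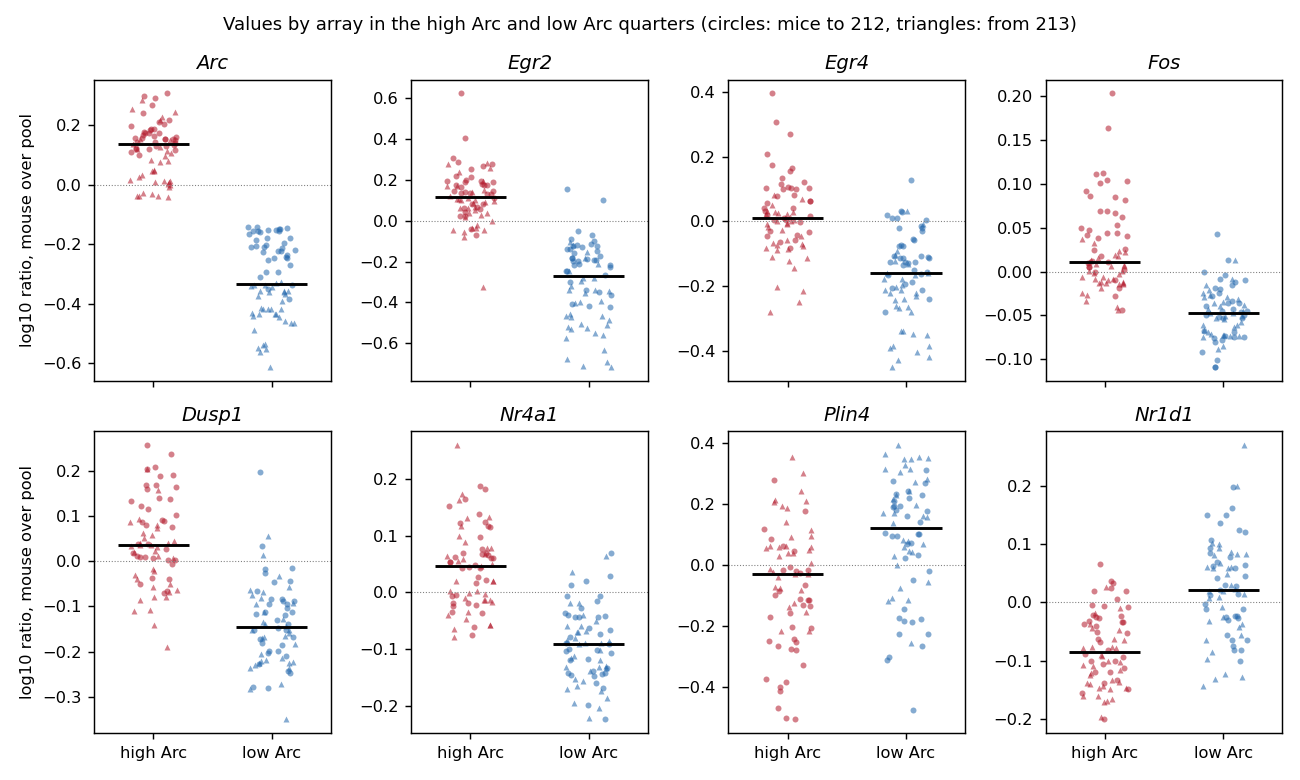
Deposited log10 ratio of mouse over pool (vertical axis, a scale per gene) for each of the 72 high Arc and 72 low Arc arrays, with circles for mice up to 212, triangles for mice from 213, and a black line at the group median. Arc does not overlap because it chose the groups; Egr2, Egr4, Fos, Dusp1 and Nr4a1 are shifted up in high Arc brains with overlap, and Plin4 and Nr1d1 are shifted down, with medians of -0.0297 and -0.0849 in high Arc brains against 0.122 and 0.0222 in low Arc brains.

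A gene counted as changed where its adjusted p was under 0.05 and its difference at least 1.1-fold. Of 10834 named genes besides Arc, 123 were higher in high Arc brains (1.14%) and 127 were lower (1.17%). Without the size limit the numbers were 859 (7.93%) and 745 (6.88%). Against this background, 18 of the 29 measured immediate early transcription factors were higher and 0 were lower. Their median difference was 0.065 on the log10 scale, against 0.0015 over all named genes. The mean over the list ran from -0.0661 through a median of 0.0113 to 0.0827 in high Arc brains, against -0.141, -0.0662 and 0.0469 in low Arc brains.

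Arc was not spread evenly along the order of the mouse numbers, and this touches every p-value here, since the test takes mice as independent. Of 71 high Arc arrays with a next-numbered array, 40 were followed by another high Arc array and 5 by a low Arc array, and of 72 low Arc arrays 34 were followed by another low Arc array and 5 by a high Arc one. The longest stretches were 7 high Arc arrays (mice 316 to 322) and 15 low Arc arrays (mice 196 to 211). Among mice up to 212 the median number was 104 in the high Arc group and 167 in the low Arc group, and among mice from 213 it was 281 and 266. What neighbouring numbers shared is not given in the labels.

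The contrast was therefore repeated with runs of 10 mouse numbers, 33 in all. With the run as a random block (correlation within a run 0.138), 103 named genes were higher (0.951%) and 124 lower (1.14%), of which 95 and 98 were among those above, and 18 transcription factors were higher. With the run as a covariate, the difference rests on the 14 runs that held both groups, with 35 high Arc and 37 low Arc brains. There 124 were higher (1.14%) and 273 lower (2.52%), of which 54 and 53 were among those above. The higher transcription factors were then 13 of 29, with a list median of 0.0439. Within runs Egr2 was 2.34-fold higher (adjusted p = 4.37e-15), Egr4 1.35-fold (0.000802), Egr1 1.31-fold (0.00103), Nr4a1 1.4-fold (3.81e-09), Dusp1 1.41-fold (3.01e-06) and Fos 1.15-fold (5.22e-05). The transcription factors that lost their call there were Klf4, Btg2, Csrnp1, Nfil3 and Crem, with 1.05- to 1.18-fold (adjusted p from 0.0484 to 0.565).

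Egr1, the best known member of the Egr family, had log10 ratios of -0.257, 0.0433 and 0.228 in high Arc brains, against -0.476, -0.134 and 0.219 in low Arc brains. It rose 1.47-fold (adjusted p = 9.87e-15), with 67 of 72 high Arc brains above the low Arc median of their block. Egr3, the remaining member, did not pass: its difference was 0.008 ± 0.004 (SE; adjusted p = 0.167), and its values spanned -0.0694 to 0.0867 in high Arc brains, against -0.0775 to 0.0369 in low Arc brains. The fold sizes of the 4 Egr genes were thus 2.64, 1.52, 1.47 and 1.02 for Egr2, Egr4, Egr1 and Egr3.

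Nr4a1, an orphan nuclear receptor that acts without a known natural ligand, had -0.0793, 0.0474 and 0.260 in high Arc brains, against -0.223, -0.0909 and 0.0692 in low Arc brains. It rose 1.37-fold (adjusted p = 6.05e-20), with all 72 high Arc brains above the low Arc median. Nr4a2, its relative, which is also needed by dopamine neurons, rose 1.22-fold (adjusted p = 4.73e-13), whereas the third member, Nr4a3, had a difference of 0.004 ± 0.004 (SE; adjusted p = 0.555).

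Among the AP-1 genes, Fos and Junb passed. Junb had -0.101, -0.00731 and 0.169 in high Arc brains, against -0.145, -0.0608 and 0.0715 in low Arc brains, and rose 1.16-fold (adjusted p = 5.22e-12). Jun and Jund differed by 0.008 ± 0.009 and 0.035 ± 0.014 (SE; adjusted p = 0.57 and 0.0831), and Fosl2 by 0.013 ± 0.004, which passed the p-value (0.0214) but not the size limit. Fosl1 (0.020) and Atf3 (-0.0096) did not pass either.

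The Krüppel-like factors, zinc finger proteins of which Klf2 and Klf4 are also prominent in endothelium, gave 3 higher genes of 4. Klf2 had -0.306, 0.00208 and 0.318 in high Arc brains, against -0.319, -0.148 and 0.230 in low Arc brains, and rose 1.42-fold (adjusted p = 5.09e-14). Klf4 and Klf10 rose 1.27-fold each (adjusted p = 2.98e-08 and 4.76e-18), and Klf6 had a difference of -0.0185 (adjusted p = 0.207). For Klf10, 30 of 72 high Arc brains exceeded every low Arc brain.

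Ier2, a short-lived nuclear protein, had -0.221, -0.00244 and 0.265 in high Arc brains, against -0.327, -0.126 and 0.144 in low Arc brains, and rose 1.36-fold (adjusted p = 1.2e-17). Btg2, a transcriptional coregulator that slows the cell cycle, rose 1.26-fold (adjusted p = 9.2e-07) and Ier5 1.2-fold (9.74e-11). Smaller rises were found for Nfil3, a leucine zipper repressor (1.18-fold), Srf, the factor that binds the serum response element (1.17-fold), Csrnp1 (1.15-fold), Bhlhe40, a repressor of clock genes (1.14-fold), and Crem, a relative of CREB (1.11-fold). Their adjusted p-values ran from 9.74e-11 for Nfil3 to 0.000184 for Csrnp1, and their ranges overlapped between the groups. Npas4, a neuron-specific factor induced by calcium entry, did not pass: it spanned -0.0471 to 0.123 in high Arc brains, against -0.0691 to 0.0808 in low Arc brains (difference 0.013 ± 0.006, SE; adjusted p = 0.116). Maff, Klf6, Tiparp and Atf3 were the members whose difference was negative, down to -0.0217 for Tiparp (adjusted p = 0.316), and none of the 4 passed. Fosb was not analysed here.

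**Figure D2:**
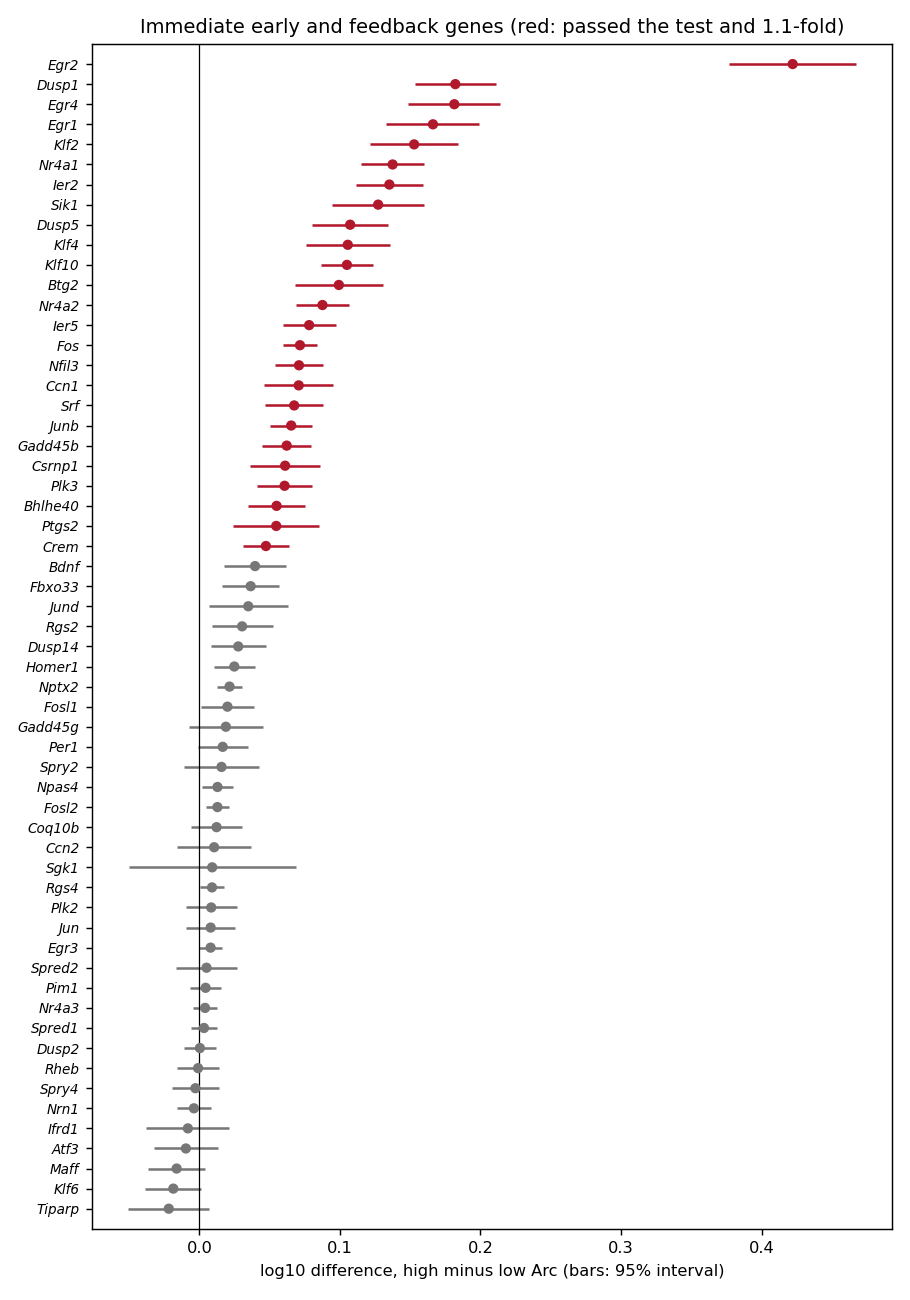
Difference on the log10 scale, high minus low Arc brains (horizontal axis), with its 95% interval, for the 58 measured immediate early and feedback genes, red where the gene passed the test and the 1.1-fold limit. The 25 red genes all lie above 0, from 0.0474 for Crem to 0.422 for Egr2.

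Of the 21 measured immediate early effector genes, 5 were higher and 0 lower, with a list median of 0.0189. Sik1, a kinase that restrains CREB coactivators, had -0.351, -0.00376 and 0.296 in high Arc brains, against -0.415, -0.138 and 0.0915 in low Arc brains. It rose 1.34-fold (adjusted p = 1.06e-09), with 62 of 72 high Arc brains above the low Arc median of their block. Ccn1, a secreted matrix protein, rose 1.18-fold (adjusted p = 1.02e-05), Gadd45b, a stress sensor tied to DNA demethylation in neurons, 1.15-fold (2.35e-08), the kinase Plk3 1.15-fold (1.57e-06), and Ptgs2, the inducible cyclooxygenase, 1.13-fold (0.01). Sik1 (1.29-fold, adjusted p = 0.00231) and Gadd45b stayed called with the run as a covariate, Ccn1, Plk3 and Ptgs2 did not, and Per1 passed (1.11-fold, adjusted p = 0.0261).

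Several synaptic effectors passed the p-value without reaching 1.1-fold. They included Homer1, a scaffold of metabotropic glutamate receptors, with a difference of 0.025 ± 0.007 (SE; adjusted p = 0.0143), and Nptx2, a secreted pentraxin that clusters AMPA receptors, with 0.022 ± 0.005 (adjusted p = 0.00037). Bdnf, the neurotrophin, had -0.160, 0.0192 and 0.255 in high Arc brains, against -0.207, -0.0232 and 0.0947 in low Arc brains, a difference of 0.040 ± 0.011 (adjusted p = 0.00957) that fell just short of the limit. Sgk1, which both activity and glucocorticoids can induce, had a difference of 0.009 ± 0.030 (adjusted p = 0.872), with values from -0.437 to 0.292 in high Arc brains, against -0.401 to 0.322 in low Arc brains.

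Feedback genes of the MAP kinase pathway gave 2 higher and 0 lower of 8. Dusp1, a nuclear phosphatase that inactivates p38, JNK and ERK, had -0.190, 0.0357 and 0.258 in high Arc brains, against -0.350, -0.145 and 0.199 in low Arc brains. Its rise of 1.52-fold (adjusted p = 1.36e-20) was as large as that of Egr4, and 71 of 72 high Arc brains exceeded the low Arc median. Dusp5, a phosphatase specific for ERK, had -0.400, 0.0360 and 0.265 in high Arc brains, against -0.262, -0.0675 and 0.0461 in low Arc brains, and rose 1.28-fold (adjusted p = 7.83e-10), or 1.15-fold with the run as a covariate (adjusted p = 0.099). Dusp14 passed the p-value only (difference 0.028, adjusted p = 0.0452), and the cytosolic inhibitors Spry2, Spry4, Spred1 and Spred2 lay between -0.0028 and 0.0158.

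RefSeq windows on GRCm38.p6, from 250 bases before to 50 bases after a gene's start, were matched by symbol for 97 of the 123 higher genes and 100 of the 127 lower genes. The windows of Egr2, Egr4, Fos, Dusp1 and Nr4a1 stand for genes that rose, and that of Npas4 for one that did not pass. Capitals mark CGTCA on either strand, the core of the cAMP response element that CREB binds, and the CArG box bound by SRF. For Egr2, which has 5 windows, the one with the most matches is shown.
Egr2: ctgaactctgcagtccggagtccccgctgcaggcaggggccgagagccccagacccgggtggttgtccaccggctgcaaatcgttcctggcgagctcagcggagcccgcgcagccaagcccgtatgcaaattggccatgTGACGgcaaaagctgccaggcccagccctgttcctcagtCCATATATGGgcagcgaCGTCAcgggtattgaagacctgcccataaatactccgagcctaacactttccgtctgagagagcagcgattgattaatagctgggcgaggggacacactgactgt
Egr4: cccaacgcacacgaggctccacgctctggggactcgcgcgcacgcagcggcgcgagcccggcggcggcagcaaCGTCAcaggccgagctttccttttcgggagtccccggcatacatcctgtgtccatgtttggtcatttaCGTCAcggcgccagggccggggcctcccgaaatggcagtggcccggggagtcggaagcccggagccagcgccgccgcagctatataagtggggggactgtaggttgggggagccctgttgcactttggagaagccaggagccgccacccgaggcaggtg
Fos: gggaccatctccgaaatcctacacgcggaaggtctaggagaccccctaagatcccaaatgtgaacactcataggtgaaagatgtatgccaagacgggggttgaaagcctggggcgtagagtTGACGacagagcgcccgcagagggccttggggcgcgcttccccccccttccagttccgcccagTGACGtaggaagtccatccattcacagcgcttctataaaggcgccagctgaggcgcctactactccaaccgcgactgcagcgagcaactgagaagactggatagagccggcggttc
Dusp1: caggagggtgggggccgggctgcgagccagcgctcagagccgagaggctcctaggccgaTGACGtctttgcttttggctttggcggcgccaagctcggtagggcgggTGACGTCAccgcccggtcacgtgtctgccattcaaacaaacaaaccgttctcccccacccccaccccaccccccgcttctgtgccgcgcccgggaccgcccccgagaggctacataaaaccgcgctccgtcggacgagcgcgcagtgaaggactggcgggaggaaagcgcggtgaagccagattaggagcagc
Nr4a1: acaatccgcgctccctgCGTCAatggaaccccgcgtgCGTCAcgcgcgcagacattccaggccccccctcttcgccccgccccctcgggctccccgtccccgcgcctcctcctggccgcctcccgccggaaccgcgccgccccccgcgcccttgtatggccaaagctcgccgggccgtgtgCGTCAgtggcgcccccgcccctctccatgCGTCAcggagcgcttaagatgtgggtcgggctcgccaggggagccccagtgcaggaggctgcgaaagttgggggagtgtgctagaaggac
Npas4: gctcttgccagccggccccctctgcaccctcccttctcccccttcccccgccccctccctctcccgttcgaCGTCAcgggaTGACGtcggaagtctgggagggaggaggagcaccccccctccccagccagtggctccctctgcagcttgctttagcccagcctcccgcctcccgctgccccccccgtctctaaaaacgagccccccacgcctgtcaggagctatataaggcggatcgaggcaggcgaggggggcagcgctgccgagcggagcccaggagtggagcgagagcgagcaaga
They lie at chr10:67537619-67537918 (Egr2, plus strand), chr6:85513540-85513839 (Egr4, minus), chr12:85473640-85473939 (Fos, plus), chr17:26508423-26508722 (Dusp1, minus), chr15:101266596-101266895 (Nr4a1, plus) and chr19:4989922-4990221 (Npas4, minus).

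The core occurred 2 times in the windows of Egr2, Egr4 and Fos, 3 times in that of Dusp1 and 4 times in that of Nr4a1, and also 2 times in that of Npas4. Dusp1 held the whole palindrome TGACGTCA, which contains the core on both strands, and Egr2 held 1 CArG box. Of the 32851 windows in the table, 20.8% held the core, 1.79% the palindrome and 1.63% the CArG box. The 97 higher genes had 123 windows, since some genes have several. Of these windows 43.9% held the core, 4.07% the palindrome and 5.69% the CArG box. The 124 windows of lower genes gave 40.3%, 5.65% and 1.61%, and the 10856 windows of all named genes 26%, 2.26% and 1.54%. Counted by gene, the CArG box was in 4.12% of higher, 2% of lower and 1.79% of all named genes. The core was in 48.5%, 45% and 29.8% in the same order, and the palindrome in 5.15%, 7% and 2.68%. The motif GCGNGGGCG, to which the Egr proteins bind, was searched on both strands as well. It was in 20.3% of the windows of higher genes, 6.45% of those of lower genes, 9.32% of those of all named genes and 5.55% of all windows. Counted by gene, it was in 24.7% of higher, 7% of lower and 10.9% of all named genes. These are matches of letters and not sites of binding, and no test was made on them.

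Outside the immediate early lists, 3 genes were among the 15 largest rises with the same direction in each of 3 label classes. These classes are mice up to 212 with the first or the second form of the description, and mice from 213. The latter all have the first form, and the border at 212 is that of the ranking. Eomes, a T-box factor of newborn glutamatergic neurons and of olfactory bulb projection neurons, had -0.866, 0.0829 and 0.297 in high Arc brains, against -0.298, -0.0633 and 0.107 in low Arc brains. It rose 1.31-fold (adjusted p = 7.75e-05); the log10 difference was 0.045 in mice up to 212 (adjusted p = 0.503 there) and 0.196 in mice from 213. Of the other 10 measured olfactory bulb genes, 0 passed. Stk40, a pseudokinase, rose 1.28-fold (adjusted p = 1.74e-10), and Phlda1, a pleckstrin homology-like protein induced by growth factors, 1.25-fold (1.3e-06). Inhba, the inhibin beta A subunit that forms activin and follows synaptic activity, was the 1 of 18 late activity and secretory genes to pass. It had -0.212, 0.0000619 and 0.251 in high Arc brains, against -0.217, -0.0524 and 0.167 in low Arc brains (1.15-fold, adjusted p = 0.00376; 0.0651 with the run as a covariate). The neuropeptide gene Npy had a difference of 0.040 ± 0.011 (SE; adjusted p = 0.00577), under the size limit.

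Of 14 genes of glutamate receptors and the postsynaptic density 0 passed, with 3 passing the p-value upward and 1 downward. Of 9 GABA genes 0 passed at either rule. Over all named genes 1.14% were higher and 1.17% lower, or 7.93% and 6.88% by the p-value alone. At the full-rule shares, 0 in lists this short does not set them apart from all named genes. Gria3, an AMPA receptor subunit, differed by -0.034 ± 0.015 (SE; adjusted p = 0.11), and Gad1, a GABA-synthesising enzyme, by -0.033 ± 0.018 (adjusted p = 0.196).

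Among the lower genes were 2 of the 14 measured glucocorticoid responsive genes, while 0 of the 14 were higher. Plin4, a lipid droplet coat protein, had -0.504, -0.0297 and 0.354 in high Arc brains, against -0.474, 0.122 and 0.393 in low Arc brains. It was 1.41-fold lower in high Arc brains (adjusted p = 9.34e-05), with 61 of 72 below the low Arc median of their block. Fkbp5, a chaperone that reduces the hormone affinity of the glucocorticoid receptor, had -0.251, -0.0207 and 0.256 in high Arc brains, against -0.215, 0.0844 and 0.287 in low Arc brains, 1.23-fold lower (adjusted p = 5.56e-05). The other 12 did not pass. Tsc22d3, the glucocorticoid-induced leucine zipper gene, had a difference of -0.033 ± 0.014 (SE; adjusted p = 0.0992), and the median of the list was -0.0097. Plin4 was 1.55-fold lower in mice up to 212 (adjusted p = 0.00788), while in mice from 213 it did not pass (1.28-fold, adjusted p = 0.0693). With runs of mouse numbers as a random block both genes stayed lower, Plin4 by 1.32-fold (adjusted p = 0.00932) and Fkbp5 by 1.21-fold (0.0018). With the run as a covariate 0 of the 14 passed: Plin4 was 1.06-fold lower (adjusted p = 0.795) and Fkbp5 1.15-fold lower (0.171).

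Of 14 measured clock genes 1 fell and 1 rose. Nr1d1, the nuclear receptor REV-ERB alpha, which represses Arntl, had -0.200, -0.0849 and 0.0651 in high Arc brains, against -0.142, 0.0222 and 0.269 in low Arc brains. It was 1.27-fold lower in high Arc brains (adjusted p = 9.5e-12), with 68 of 72 below the low Arc median, and passed in either block (adjusted p = 0.000663 and 6.09e-07). Arntl, which encodes the clock activator BMAL1, had a difference of 0.035 ± 0.010 (SE; adjusted p = 0.00757), under the size limit, and Rorb, a nuclear receptor that binds the same DNA element as REV-ERB alpha, rose 1.1-fold (adjusted p = 0.000195), a call that ended at 1.09-fold with the label classes as covariate. Nr1d1 was 1.18-fold lower with the run as a covariate (adjusted p = 0.00858). Per1 and Per2, the period genes, did not pass (adjusted p = 0.205 and 0.0509), nor did Nr1d2, the closest relative of Nr1d1 (-0.0238, adjusted p = 0.134). Per2 did pass in 11 of 24 alternatives, among them the label classes as covariate (1.14-fold, adjusted p = 0.0359), the run as a covariate (1.19-fold, adjusted p = 0.0367) and mice from 213 alone (1.29-fold, adjusted p = 0.0037), while in mice up to 212 its difference was -0.0051. The hour at which each mouse was killed is not given in the labels.

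The other large falls belonged to genes of varied function. Itgad, an integrin alpha subunit of leukocytes, had -0.545, -0.0858 and 0.306 in high Arc brains, against -0.445, 0.121 and 0.392 in low Arc brains (1.48-fold lower, adjusted p = 0.00012). Itgad was 1.11-fold lower with the run as a covariate (adjusted p = 0.556). Lower by 1.2- to 1.26-fold were Lrp6, a Wnt co-receptor, Fam214a, Crtam, Fem1b, Slc10a6, a sulfated steroid transporter, Fam204a, Fhl4, and Edn1, the endothelin precursor. Of these, Fam214a, Fem1b, Fhl4 and Edn1 stayed lower with the run as a covariate (adjusted p from 3.2e-07 to 0.00551). Lrp6, Crtam, Slc10a6 and Fam204a did not pass there (adjusted p from 0.105 to 0.332). For Lrp6 the other probe gave a difference of 0.0025 (adjusted p = 0.73), so its value rests on 1 probe. With the label classes as covariate Lrp6 and Slc10a6 missed the threshold (1.26- and 1.18-fold lower, adjusted p = 0.0528 and 0.0636). Fam214a was the most regular of these, with 0.00106 in the median high Arc brain against 0.0713 in the median low Arc brain, and 68 of 72 high Arc brains below the low Arc median (adjusted p = 5.67e-12). Rbm3, an RNA-binding protein induced by cold, had -0.286, 0.0128 and 0.187 in high Arc brains, against -0.233, 0.0936 and 0.264 in low Arc brains. Its 2 probes were alike, 1.22-fold lower each (adjusted p = 0.000371 and 0.000422). Rbm3 was 1.15-fold lower with the run as a covariate (adjusted p = 0.134).

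Eif2s3y and Kdm5d, which lie on the Y chromosome, were lower in high Arc brains, with medians of -1.54 and -0.752 against 0.0492 and 0.135 in low Arc brains. Both groups held brains at either extreme, from -1.86 to 0.378 for Eif2s3y in high Arc brains and from -1.85 to 0.369 in low Arc brains. The groups were also uneven in the label classes: 21 high Arc and 11 low Arc brains among mice up to 212 with the first form of the description, and 16 high Arc and 26 low Arc brains with the second form. Over all arrays, the mean of the measured Y-linked and X-dosage genes had a median of -0.551 in the first of these classes and 0.105 in the second. With these classes as covariate the differences were -0.21 and -0.13 (adjusted p = 0.144 and 0.186), and Hccs, an X-linked gene, also no longer reached the size limit (-0.032). In that fit 121 named genes were higher (1.12%) and 126 lower (1.16%), 18 of the 29 immediate early transcription factors were higher, and Egr2 differed by 0.43. Mice from 213 all share a label class, so that covariate could not adjust for anything among them. There Eif2s3y and Kdm5d differed by -0.34 and -0.216, and neither passed. The part of sex in the other differences was not tested.

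For markers of regions and cell types the background was 1.14% of named genes higher and 1.17% lower. At these shares, 0 in a short list does not set it apart from all named genes. Of 13 genes of cortex and hippocampus, 9 of striatum, 11 of cerebellum, 10 of hypothalamus, 8 of pituitary, 12 of neurons, 14 of myelin and 10 of microglia, 0 passed in either direction. Single members passed in others: Rgs16, a regulator of G protein signalling listed for thalamus, rose 1.17-fold (1 of 10), Tek, the angiopoietin receptor of endothelium, rose 1.11-fold (1 of 13; 1.09-fold and thus 0 of 13 with the label classes as covariate), Aldoc, the astrocyte aldolase, was 1.12-fold lower (1 of 12), and F5, a coagulation factor listed for choroid plexus, 1.12-fold lower (1 of 8). None of these 4 passed with the run as a covariate. In that fit 1 hypothalamus gene was higher, against 1.14% of named genes. There 1 thalamus gene and the myelin gene Opalin (1.14-fold, adjusted p = 0.0354) were lower, against 2.52%. The pituitary list median was 0.15 in that fit, with 0 of 8 called. Without the run, by the p-value alone, 3 of 13 cortex and hippocampus genes passed upward and 0 downward, against 7.93% and 6.88% of named genes. Under that rule 1 striatal gene passed upward, 2 myelin genes passed in each direction, and 3 of 12 astrocyte genes passed downward and 0 upward. With the label classes as covariate 1 cortex and hippocampus gene was higher by the full rule. Outside the immediate early lists, the list medians lay between -0.0148 for interferon response genes and 0.0130 for cortex and hippocampus, apart from the erythrocyte genes and the Y-linked and X-dosage genes (-0.0548). All 5 erythrocyte genes had positive differences, with a median of 0.0676. Hba-a1, an alpha globin, passed (1.17-fold, adjusted p = 0.0244). Its call was lost in 10 of 24 alternatives, including the run as random block (adjusted p = 0.0744) and as covariate (0.42). Hbb-b1 and Hbb-b2, the beta globins, had 0.070 and 0.072 (adjusted p = 0.134 and 0.14). The mean of the 5 erythrocyte genes ran from -0.400 through -0.0509 to 0.236 in high Arc brains, against -0.430, -0.110 and 0.186 in low Arc brains. The part of blood in the other differences was not tested. Dnajb1, a heat shock co-chaperone, rose 1.1-fold (1 of 12 heat shock genes), a call lost in 12 of 24 alternatives, including the run as random block or covariate. Of 8 oxidative phosphorylation, 13 cytosolic ribosomal and 10 cholesterol synthesis genes, 0 passed, and of 10 interferon response genes Ifit3 was lower (1.11-fold, adjusted p = 0.0484), a call lost in 16 of 24 alternatives, including either block alone.

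**Figure D3:**
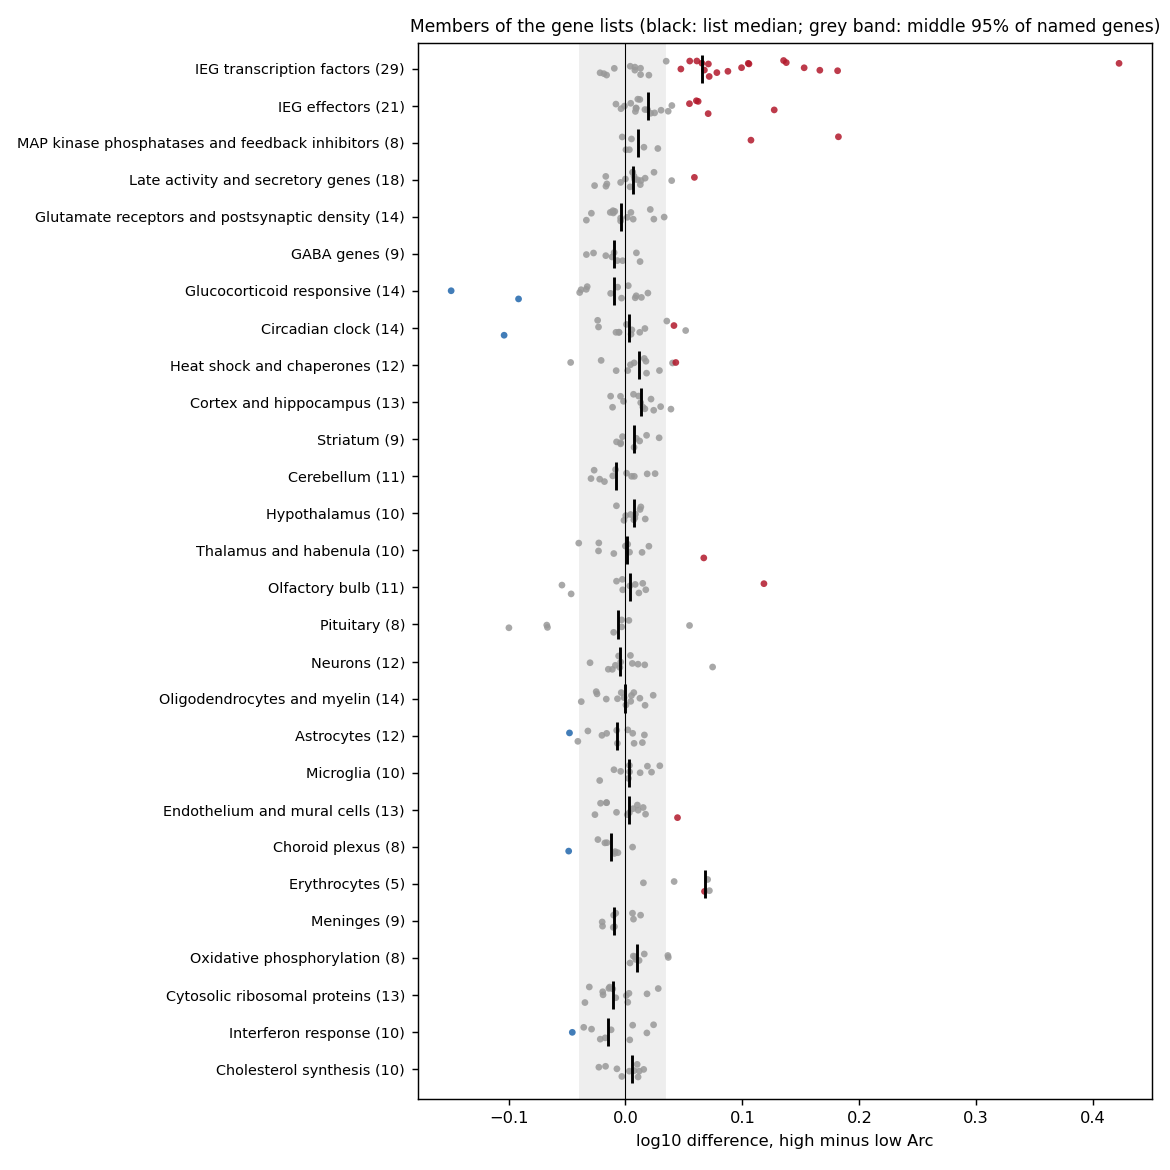
Difference on the log10 scale, high minus low Arc brains (horizontal axis), for every measured member of the lists (number in brackets; the Y-linked and X-dosage list is left out), red where higher and blue where lower by the test and the 1.1-fold limit, with a black line at the list median and a grey band over the middle 95% of named genes. The 18 red points of the transcription factor list stand at 0.0474 and above, and most other lists have their median near 0.

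The arrays of the groups were alike in overall spread: the SD over all probes had a median of 0.0686 in high Arc arrays and 0.0688 in low Arc arrays. With label class and mouse number as covariates, 124 named genes were higher and 148 lower, and the counts for the transcription factors (18 higher) and for the glucocorticoid responsive genes (2 lower) were as before. Of the 20 measured genes nearest to Arc on chromosome 15, 10 on each side, 0 were higher and 1 was lower, Dennd3 (-0.0424, adjusted p = 0.0246).

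The contrast was repeated within each block of mice. Of the 123 higher genes 120 had a positive difference in both blocks, and of the 127 lower genes 127 had a negative one. These genes were called on both blocks together, so their agreement in sign was largely set by that choice and is no replication. Tested in each block alone, 16 of 29 transcription factors were higher in mice up to 212, where 0.951% of named genes were higher and 0.923% lower, and 16 in mice from 213, where 1.08% were higher and 1.39% lower. Egr2 differed 2.25-fold in mice up to 212 and 3.13-fold in mice from 213, and the Arc means of the groups lay 2.45- and 3.14-fold apart. Egr1 had 1.28- and 1.69-fold, whereas Fos had 1.25- and 1.11-fold and Dusp1 1.61- and 1.44-fold. The test of the difference between blocks passed for 8 named genes (0.0738%), and for 11 of all probes (0.0467%), or for 259 probes with array weights. It passed for 0 of the 58 immediate early and feedback genes, with adjusted p = 0.245 for Egr2, 0.117 for Egr1 and 0.0649 for Fos.

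**Figure D4:**
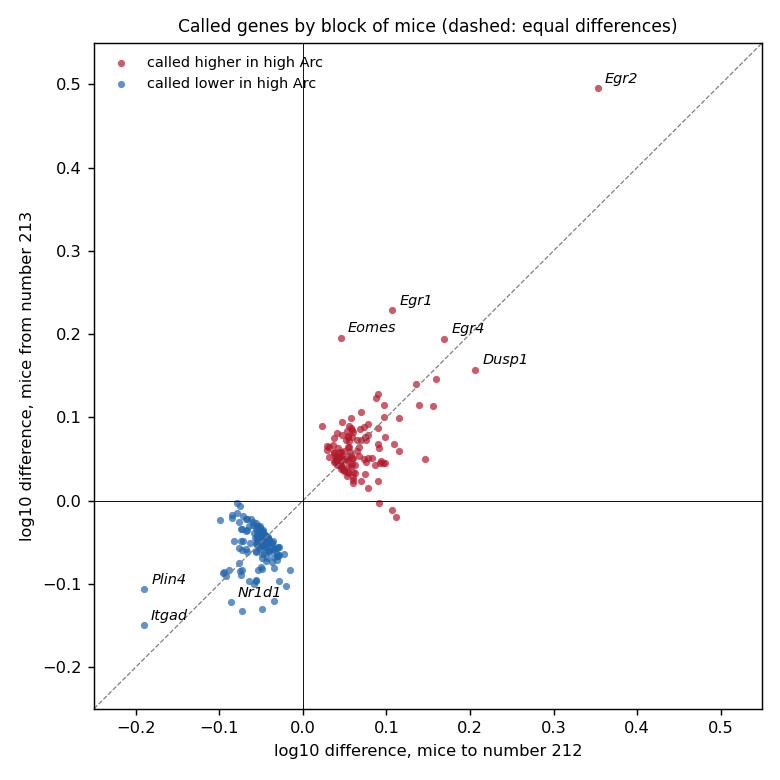
Difference on the log10 scale, high minus low Arc, of the called genes in mice up to 212 (horizontal axis) and from 213 (vertical axis), red for genes higher and blue for genes lower in high Arc brains over both blocks (Eif2s3y and Kdm5d are left out). All but 3 of the 123 red points are positive on both axes, and the values are those that chose the points as called.

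The 148 brains between the groups had no part in the contrast. Within each block they were split by Arc into an upper-middle and a lower-middle group of 73 brains each, with 2 in neither, whose Arc means lay 1.31-fold apart. There 9 named genes were higher (0.0831%) and 0 lower (0%) by limma, while 14 were lower by 1.1-fold at an unadjusted p under 0.05. The 9 included 5 of the 29 transcription factors. Egr2 had -0.076 ± 0.144 in the upper-middle brains and -0.214 ± 0.164 in the lower-middle brains (mean and SD), 1.37-fold higher (adjusted p = 1.18e-06). Dusp1 was 1.28-fold higher (6.67e-07), Sik1 1.21-fold (0.00485), Egr4 1.2-fold (0.0177), Klf2 1.18-fold (0.0303), Nr4a1 1.12-fold (0.0381) and Csrnp1 1.12-fold (0.0381). The remaining 2, named after their values were seen, were Nfkbia, the inhibitor of NF-kappaB and a member of the glucocorticoid responsive list, and Dyrk3, a kinase. Nfkbia was 1.22-fold higher among the middle brains (adjusted p = 0.0181) but differed by 0.008 ± 0.024 (SE) between high and low Arc brains (adjusted p = 0.85). Of the glucocorticoid responsive genes it was the 1 that was higher among the middle brains, where 0 were lower and the list median was 0.0074. Fos (1.05-fold, adjusted p = 0.0635), Plin4 and Nr1d1 (adjusted p = 0.648 and 0.822) did not pass there. With the label classes as covariate 5 genes were higher. With runs of mouse numbers as a random block 3 were higher (0.0277%), namely Egr2, Dusp1 and Sik1, and with the run as a covariate 2 (0.0185%), Egr2 (1.27-fold, adjusted p = 0.0109) and Dusp1 (1.2-fold, 0.0109).

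**Figure D5:**
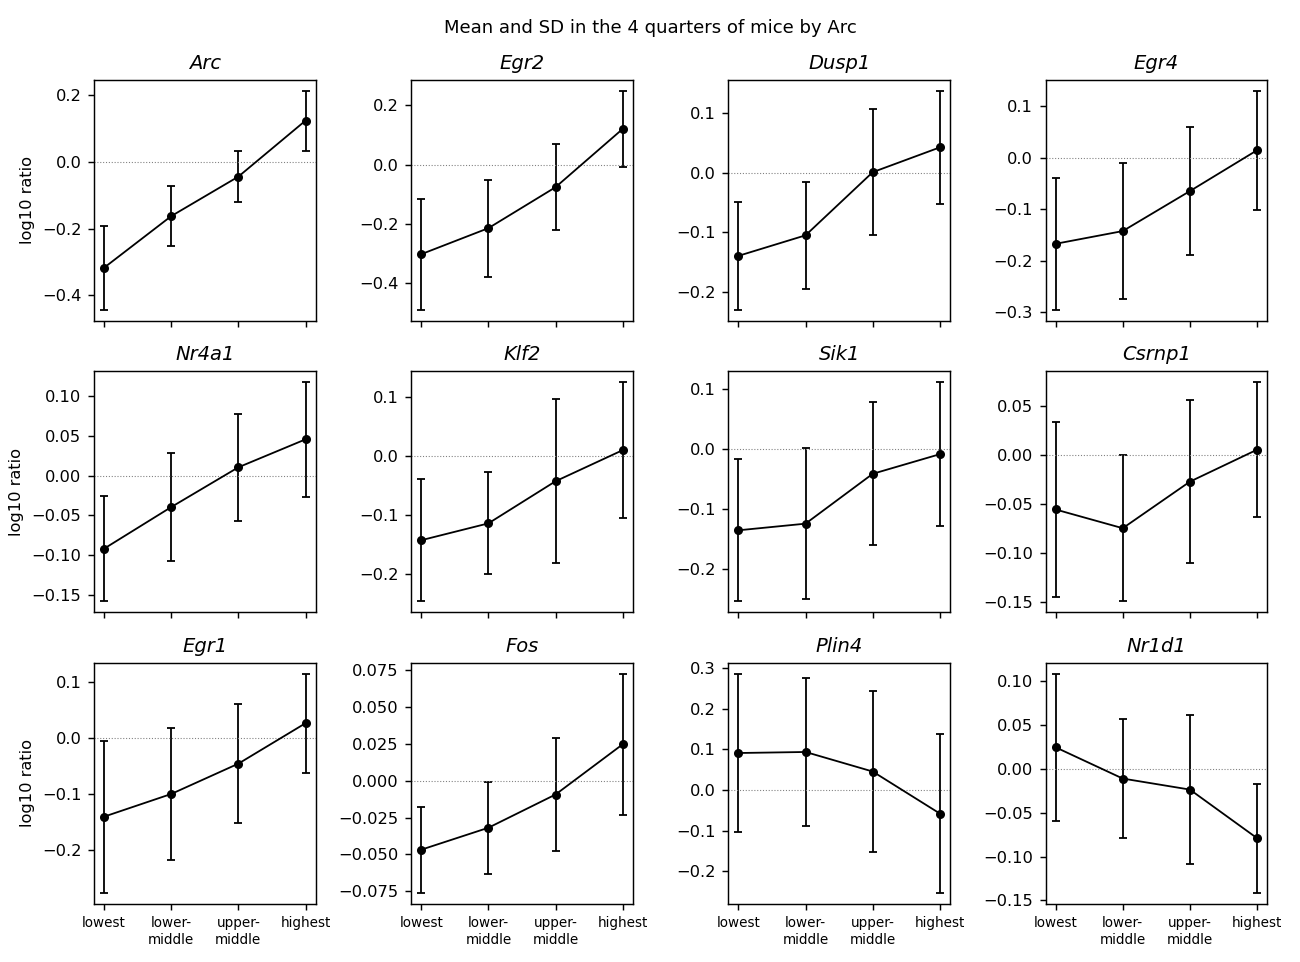
Mean log10 ratio of mouse over pool with SD (vertical axis, a scale per gene) in the lowest, lower-middle, upper-middle and highest 25% of mice by Arc (72, 73, 73 and 72 brains). Means of Egr2, Dusp1, Egr4, Nr4a1, Klf2 and Sik1 are ordered from the lowest to the highest group, while Plin4 has about the same mean in the lowest and lower-middle groups (0.091 and 0.094).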

How the data were processed

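The authors' deposited table holds log10 ratios per probe and array. Per the labels, mouse RNA carried Cy3 and pool RNA Cy5; no source used here gives the base or sign of the ratios. Values were read as base 10 and as mouse over pool, so fold sizes rest on that base; with every sign turned, the high and low groups change names and each high minus low difference stays as it is. Signal over background cannot be judged from ratios, and the number of arrays limits the precision. Of 23574 probes, 25 with over 5% missing values were left out, and 252 missing entries took the mean of their probe. Of the 23549 probes used, 13647 had 1 gene in the platform annotation, 48 several and 9854 none; 12645 matched a current symbol, giving 10835 genes. The probe of largest SD stood for a gene. Differences were tested with limma 3.58.1 (R 4.3.3), block as covariate, with Benjamini-Hochberg adjustment over 23548 probes; Arc got no test. Runs of 10 mouse numbers were fitted as a random block (duplicateCorrelation) or as a covariate. Each mouse gave 1 array. The test was checked on simulated data. Named genes were all members of the immediate early and feedback lists, the 15 largest rises and falls with 1 sign in the 3 label classes, and up to 4 called and 2 uncalled members of each other list. The groups, members and lists were chosen with earlier results of these data known.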

Additional observations from a re-analysis of the deposited data

Results flagged for a closer look

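For 8 of 10834 named genes (0.0738%) the test of the difference between blocks passed, and for 11 of 23548 probes (0.0467%); none of them is an immediate early gene of the lists. Each value is the log10 difference, high minus low Arc, in mice from 213 minus that in mice up to 212. It was -0.131 for Pgap6 (adjusted p = 0.0112), which had -0.0201 in mice from 213 and 0.111 in mice up to 212. The other 7 had an adjusted p of 0.0453. The value was -0.0497 for Cd83, an activation marker of dendritic cells and microglia, with -0.0613 in mice from 213 and -0.0117 in mice up to 212. It was 0.0653 for Myo5b, an unconventional myosin, with 0.00751 and -0.0578 in the same order of blocks. It was -0.0419 for Lgmn, a lysosomal protease, -0.0669 for Il10ra, the interleukin 10 receptor alpha chain, and -0.0777 for Nudt14. It was -0.0762 for Sephs2, an enzyme of selenoprotein synthesis, and -0.0703 for Nova1, a neuronal splicing factor. The part of the label classes in these differences was not tested.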

How the results depend on the processing

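Over 24 alternatives Egr2 and Egr4 passed each time. Turning the sign of all ratios and dropping the 1.1-fold limit are among the 24 here and above, but neither could remove a call. With the label classes or mouse number as covariates, runs of mouse numbers as random block, with arrays centred, scaled or quantile normalized, and with a slope on Arc over all arrays, the counts of higher genes (123) and lower genes (127) and of higher transcription factors (18) stayed within 1.5 times. Without the 1.1-fold limit 859 genes were higher and 745 lower, and with a 1.2-fold limit 23 and 14, with 10 transcription factors. The highest against the lowest 10% gave 239 and 302, and the upper against the lower 50% 42 and 13. The first label class up to 212 alone, with 21 high Arc and 11 low Arc brains, gave 7 higher, 0 lower (262 lower by 1.1-fold at an unadjusted p under 0.05) and 5 transcription factors; the second class, with 16 and 26 brains, gave 20, 5 and 10. The lower glucocorticoid responsive genes were 1 in mice from 213 and 0 in either label class up to 212. With the run as a covariate 273 genes were lower, 13 transcription factors higher and 0 glucocorticoid responsive genes lower. Among the middle brains, the label classes as covariate left 5 higher genes, the run as random block 3 and as covariate 2, and with array weights 259 probes differed between blocks, against 11; the cause was not tested. Differences turned sign for Jun in mice from 213 (-0.00972), Per1 and Per2 in mice up to 212 (-0.00611 and -0.00509), Per1, Bdnf and Rgs2 in the first label class up to 212 (-0.0128, -0.00413 and -0.00232), Per2 and Bhlhe40 in the second class (-0.0314 and -0.00652), Gria3 between the upper and lower 50% (0.00051), Sgk1 and Nfkbia with the run as random block (-0.0111 and -0.00481), and Sgk1, Nfkbia, Dusp14, Thbd, Arntl, Dyrk3 and Tek with the run as covariate (-0.0921, -0.0493, -0.0141, -0.00884, -0.00476, -0.00164 and -0.00087). Of these Bhlhe40, Tek and Thbd had passed the test with the size limit. Of 59 called genes named, 7 lost the call with the label classes as covariate (Eif2s3y, Kdm5d, Hccs, Lrp6, Slc10a6, Rorb and Tek), and these and Inhba, Hba-a1 and Thbd with mouse number added. With the classes Eif2s3y and Kdm5d stood at 1.64- and 1.35-fold, against 2.9- and 2.03-fold without them. The log10 difference of Hccs went from -0.0548 to -0.032, which is under 1.1-fold. The fold sizes of Lrp6, Slc10a6, Rorb and Tek moved little, those of Rorb and Tek to under 1.1-fold. With the run as random block 10 of the 59 lost the call, and with it as covariate 32. Ranking by another Arc probe was not run, since 1 probe is annotated to Arc. The turned sign, groups taken within label class with class as covariate, mouse number and runs of it were alternatives added after seeing the data. No paired analysis was possible because each mouse gave 1 array and no label pairs them.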

Other observations

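Several genes outside the lists, named after their values were seen, also differed between high and low Arc brains. Nab2, which encodes a corepressor of the Egr proteins and is itself an Egr target, had log10 ratios of -0.127, 0.0163 and 0.190 (lowest, median and highest) in high Arc brains, against -0.252, -0.0685 and 0.0781 in low Arc brains. It was 1.21-fold higher (adjusted p = 2.13e-10, limma), with overlap between the groups. Ccnd2, the cyclin D2 gene, was 1.18-fold higher (adjusted p = 3.49e-10). Icam2, Cd93 and Thbd, which endothelium expresses but its list above does not hold, were 1.14-, 1.11- and 1.11-fold higher (adjusted p = 2.47e-08, 0.00068 and 0.00365). With the run as random block Icam2 and Cd93 stayed called (adjusted p = 2.15e-05 and 0.0098) and Thbd did not (0.0687). With the run as a covariate none of them passed (adjusted p from 0.0811 to 0.818). Cirbp, a cold-inducible RNA-binding protein like Rbm3, was 1.12-fold lower (adjusted p = 0.000993), with medians of -0.0302 in high Arc brains and 0.0360 in low Arc brains. Dyrk3 had a log10 difference of 0.041 (adjusted p = 0.0174), just under the limit.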
